A study of Drosophila melanogaster with 6 samples.

Results

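This comparison set S2 cells treated with double-stranded RNA against dKDM4A beside S2 cells treated with double-stranded RNA against GFP. It covers every row with values in the deposited dKDM4A table, which gave 90 features, 88 genes and 2 repeats. The tables for dKDM4A and HP1a together list 582 such features, which are genes or consensus sequences of repeats. S2 is an established Drosophila melanogaster line of embryonic origin with properties of haemocytes, the blood cells of the fly. All cells were grown at 25 °C in medium with 10% serum and received double-stranded RNA with the transfection reagent DOTAP for 5 days before polyadenylated RNA was sequenced. The group with dKDM4A RNAi had 2 libraries and the group with GFP RNAi, the control for exposure to double-stranded RNA, had 2 as well. A group with HP1a RNAi (2 libraries) was set against the same GFP RNAi libraries in a table of its own. The labels give neither the sequence of the double-stranded RNA nor the number of cultures behind a group. The p-values therefore reflect the spread between libraries, which may be technical.

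In RNA interference, Dicer cuts long double-stranded RNA into short RNAs that guide the cleavage of a matching messenger RNA. dKDM4A is the gene Kdm4A, a Jumonji demethylase that removes methyl groups from lysines of histone H3. Its protein binds HP1a, the main protein of heterochromatin.

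The authors' deposited table lists only features that passed an adjusted p of 0.05. The ranks in those p-values imply 7533 tested features, of which 1.19% were listed, 0.876% as higher and 0.319% as lower. Counts of gene lists below are shares of annotated genes, whether tested or not, and 0.631% of the 13945 annotated protein-coding genes were listed. Because these same 4 libraries chose the rows, fold changes are given as a description. A positive log2 value means higher in the libraries labelled dKDM4A RNAi. Listed features had a median between 2294 and 3362 recovered reads per library, and the lowest single value was 55 reads. Total depth is unknown, since the rest of the tested features was not analysed here.

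Kdm4A checks the labels, and it went against them. It had 2141 and 2675 normalized counts in the libraries labelled dKDM4A RNAi, against 842 and 843 in the GFP RNAi libraries. Group means were 2408 ± 378 and 843 ± 0.742 (SD, n = 2 each), a 2.86-fold higher level, whereas the label implies a lower one. The recovered reads behind these values were 2285 and 2350 in the libraries labelled dKDM4A RNAi and 1061 and 714 in GFP RNAi. In the authors' deposited table its log2 fold change was 1.40 with a standard error of 0.132, and its adjusted p of 1.79e-22 was the lowest of all rows. Every direction below, apart from those of HP1a RNAi, refers to the libraries labelled dKDM4A RNAi. An exchange of the labels of both groups would turn each of them. Neither an exchange nor a count of reads from the double-stranded RNA itself was tested.

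Kdm4A also had the widest gap between the libraries labelled dKDM4A RNAi of all 90 features, 0.32 on the log2 scale. In GFP RNAi its libraries differed by only 0.0018. Directly downstream of Kdm4A on the same strand lies Or43b, an odorant receptor gene, 170 bp beyond its end (chromosome 2R, 7920835 to 7922604; Kdm4A, 7922775 to 7924988). Or43b had 263 and 262 normalized counts in the libraries labelled dKDM4A RNAi, against 441 and 443 in GFP RNAi, which was the largest decrease of the table (1.68-fold lower). The neighbouring genes thus moved in opposite directions. Of the exon sequence of Or43b, 40.7% also belongs to exons of Cul1 on the other strand, and the sources used here do not say whether counting used strand.

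Of the 90 features, 66 were higher (73.3%) and 24 lower (26.7%). Changes were small. The median higher feature was 1.37-fold higher, the median lower one 1.42-fold lower. Only 3 features, all higher, reached 2-fold, and 25 reached 1.5-fold (0.332% of features tested), 19 higher and 6 lower. An adjusted p below 0.01 was given to 60 features (0.796% of features tested). At the other end, 17 features differed by less than 1.25-fold, down to 1.18-fold for the ferritin gene Fer1HCH among higher features and for Wbp2 among lower ones. Features with an adjusted p nearest the threshold were Cyp4s3 (0.0477), CG12520 (0.0461) and CG10126 (0.0455).

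**Figure D1:**
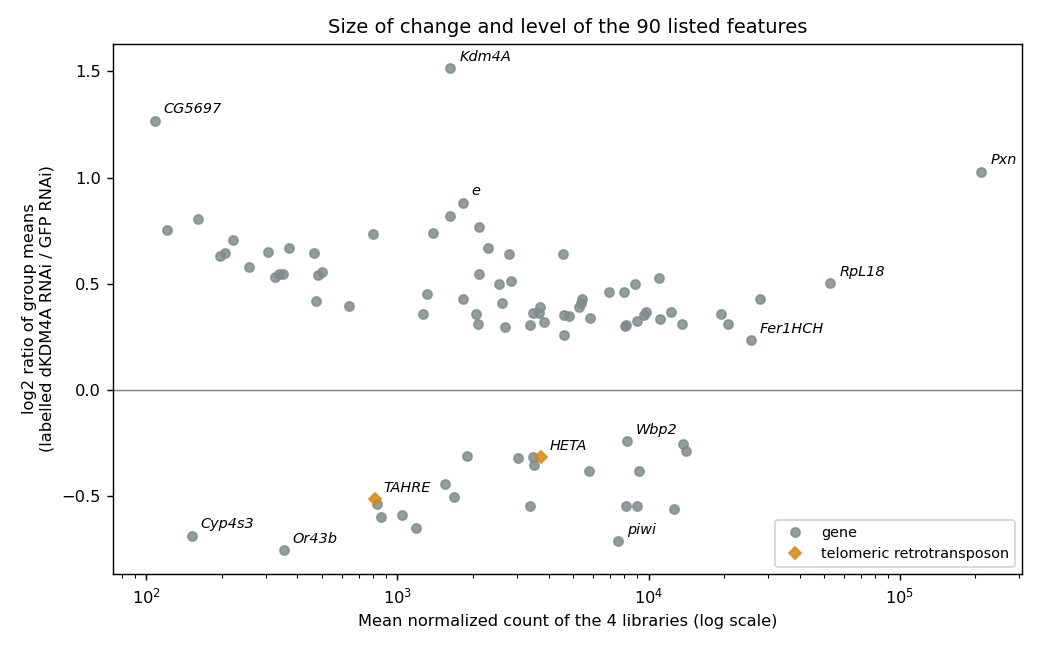
Log2 ratio of group means (labelled dKDM4A RNAi over GFP RNAi, vertical axis) against the mean normalized count of the 4 libraries (horizontal log axis) for the 90 listed features, with genes as circles and telomeric retrotransposons as diamonds. The smallest change at a mean under 500 is 1.34-fold, where a larger change is needed to pass the cut-off on adjusted p. Pxn combines the highest level with a 2.04-fold change and Kdm4A lies at the top with 2.86-fold.

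The smallest listed changes were in features with high counts. A feature with few counts needs a larger change to pass the cut-off on adjusted p. The pattern therefore cannot be told apart from the selection of the rows. Among the 17 features with a mean under 500 normalized counts, 15 were higher and 2 lower, the median change was 1.57-fold and the lowest 1.34-fold. Among the 31 features with a mean of at least 5000, 22 were higher and 9 lower, with a median of 1.30-fold and a lowest of 1.18-fold. Counted per kilobase of exon, the levels of the genes in GFP RNAi ran from 16.8 normalized counts for CG34347 to 55476 for the ribosomal protein gene RpL18, with a median of 1312. Kdm4A stood at 1191 per kilobase in the libraries labelled dKDM4A RNAi and 417 in GFP RNAi.

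The largest increase after Kdm4A was in CG5697, a gene at a low level. It had 157 and 148 normalized counts in the libraries labelled dKDM4A RNAi, against 61.9 and 65.0 in GFP RNAi (2.41-fold higher). Next came Pxn, which encodes peroxidasin, an enzyme that crosslinks collagen IV of basement membranes. Pxn had 297169 and 269658 normalized counts in the libraries labelled dKDM4A RNAi, against 158475 and 119469 in GFP RNAi (2.04-fold higher). The groups were well apart although the GFP RNAi libraries differed by 0.41 on the log2 scale. Among the listed features alone, Pxn held 36.6% and 34.5% of the normalized counts in the libraries labelled dKDM4A RNAi and 26.0% and 21.4% in GFP RNAi.

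Both listed genes of the pigmentation and cuticle list (2 of 24, both higher) were among the 5 largest increases. The gene e encodes ebony, which joins beta-alanine to dopamine in cuticle tanning. It had 2416 and 2299 normalized counts in the libraries labelled dKDM4A RNAi, against 1205 and 1355 in GFP RNAi (1.84-fold higher). The gene yellow-h, the only listed gene of chromosome 4, had 2099 and 2019 in the libraries labelled dKDM4A RNAi and 949 and 1383 in GFP RNAi (1.77-fold higher). Its GFP RNAi libraries had the widest gap of all listed features, 0.54 on the log2 scale, but stayed below both libraries labelled dKDM4A RNAi.

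**Figure D2:**
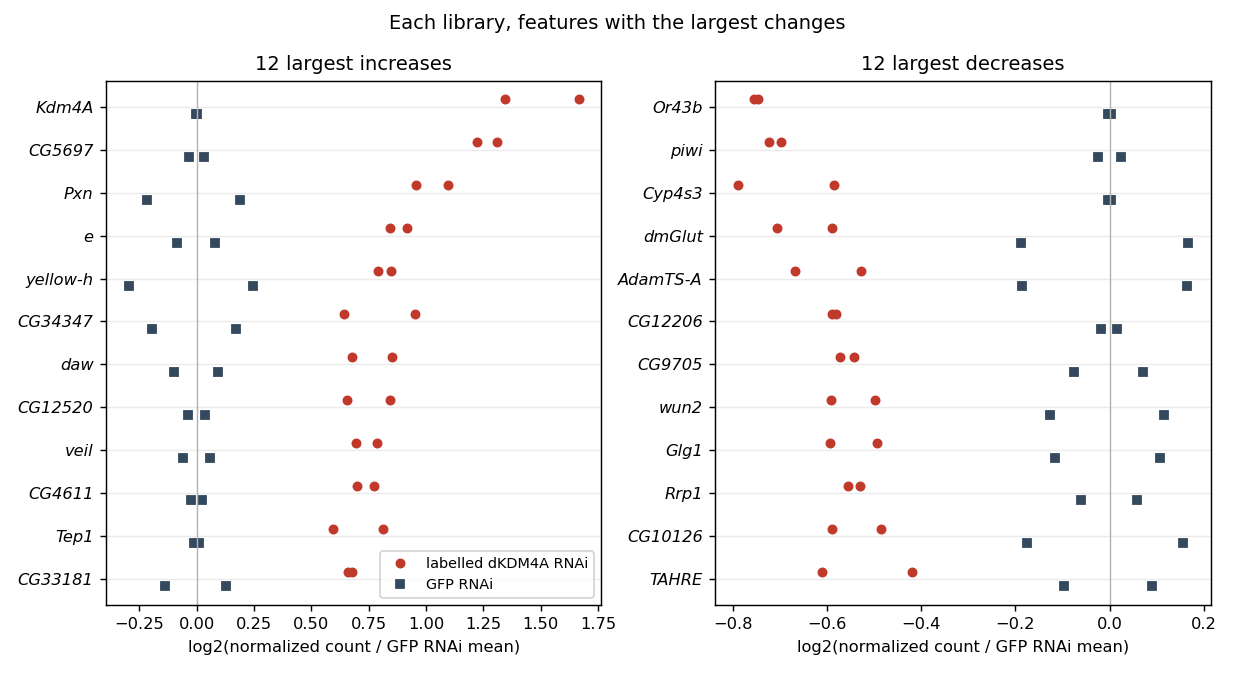
Log2 of each library's normalized count over the GFP RNAi mean of the same feature (horizontal axis) for the 12 largest increases (left) and 12 largest decreases (right), with circles for the 2 libraries labelled dKDM4A RNAi and squares for the 2 GFP RNAi libraries. The groups do not overlap for any feature shown, and the gap between circles is widest for Kdm4A.

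Signalling and surface genes followed. The activin-type ligand gene daw had 2831 and 2507 normalized counts in the libraries labelled dKDM4A RNAi, against 1670 and 1463 in GFP RNAi (1.70-fold higher), and was the 1 listed of 20 genes of the TGF-beta and activin list. The ectonucleotidase gene veil had 1784 and 1673, against 1077 and 991 in GFP RNAi (1.67-fold higher). All of its exon sequence also lies in exons of CG43110 on the opposite strand, so the reads of the overlapping genes cannot be told apart if counting ignored strand. Fas1, which encodes the adhesion protein fasciclin 1, was the 1 listed of 29 adhesion genes. It had 5632 and 5474 normalized counts in the libraries labelled dKDM4A RNAi and 3538 and 3584 in GFP RNAi (1.56-fold higher), far beyond the gaps within either group. CG34347 was 1.75-fold, CG12520 1.68-fold, CG4611 1.67-fold and CG33181 1.59-fold higher.

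Haemocyte markers had 2 of 31 genes listed (6.45%), Pxn and NimC1, both higher. NimC1, a phagocytosis receptor of plasmatocytes, had 4047 and 3774 normalized counts in the libraries labelled dKDM4A RNAi, against 3055 and 3028 in GFP RNAi (1.29-fold higher). Tep1, which encodes a thioester protein of the complement-like family, was the 1 listed of 37 humoral immunity genes. It had 296 and 255 normalized counts in the libraries labelled dKDM4A RNAi and 170 and 168 in GFP RNAi (1.63-fold higher). In bulk RNA, more cells of a type and more RNA per cell cannot be told apart. Markers of other cell types were not listed for germline (0 of 23 genes), neurons (0 of 15), muscle (0 of 15) or fat body and epithelia (0 of 16). Their levels were not analysed here, and 0 in such short lists says little where 0.631% of annotated protein-coding genes were listed.

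Haem is built in a fixed series of enzymes that begins and ends in the mitochondrion. Of 7 such enzymes matched by name 3 were listed, all higher, with a median of 1.41-fold, and the other 4 were not analysed here. Uros, a further enzyme of the series, could not be matched by name and is not among the 7. Alas, the first and rate-limiting enzyme, had 2936 and 2989 normalized counts in the libraries labelled dKDM4A RNAi, against 2188 and 2001 in GFP RNAi (1.41-fold higher). Updo, the uroporphyrinogen decarboxylase gene now named Urod, had 3308 and 3379, against 2394 and 2289 in GFP RNAi (1.43-fold higher). FeCH, the ferrochelatase that inserts iron, had 4967 and 5099, against 4178 and 4229 in GFP RNAi (1.20-fold higher). Fer1HCH, the heavy chain of the iron store ferritin and 1 listed of 3 ferritin genes, was 1.18-fold higher at 27464 and 27868, against 23410 and 23637 in GFP RNAi. Leaving out either library labelled dKDM4A RNAi ended the limma call of the smallest of these changes while the differences stayed similar. FeCH differed by 0.26 on the log2 scale with all libraries, by 0.28 without the first (limma adjusted p = 0.0506) and by 0.24 without the second (limma adjusted p = 0.0909). Fer1HCH differed by 0.23 with all libraries, by 0.24 without the first (limma adjusted p = 0.083) and by 0.22 without the second (limma adjusted p = 0.114).

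Aminoacyl-tRNA synthetases load amino acids onto their tRNAs. Of 20 genes for the cytosolic enzymes 5 were listed (25.0%), all higher, with a median of 1.28-fold. Of 15 for mitochondrial enzymes 0 were listed, which says little where 0.631% of annotated protein-coding genes were listed. The asparagine enzyme gene Aats-asn had 31967 and 32073 normalized counts in the libraries labelled dKDM4A RNAi, against 25130 and 22400 in GFP RNAi (1.35-fold higher). CG33123, the leucine enzyme gene LeuRS of the current annotation, was 1.29-fold higher. Aats-ile (isoleucine) was 1.28-fold, MetRS (methionine) 1.25-fold and Aats-his (histidine) 1.23-fold higher. The haem, ferritin and synthetase lists were added after the values were seen, so their shares are descriptions and no independent support.

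The list of cytochrome P450 genes, oxidases of hormones and foreign compounds, had 6 of 86 members listed (6.98%), 5 higher and 1 lower. Its 86 members include the cyclophilin genes Cyp1, Cyp40 and Cypl, which are not P450 genes and were not listed. Cyp6a14 had 3354 and 3410 normalized counts in the libraries labelled dKDM4A RNAi, against 1962 and 2378 in GFP RNAi (1.56-fold higher). Its neighbour Cyp6a13, at a distance of 3296 bp with no protein-coding gene between them, was 1.29-fold higher at 4135 and 4128, against 3035 and 3387 in GFP RNAi. Cyp28a5 was 1.46-fold, Cyp28d1 1.45-fold and Cyp4ad1 1.44-fold higher. The exception was Cyp4s3 at a low level, with 125 and 108 normalized counts in the libraries labelled dKDM4A RNAi, against 187 and 187 in GFP RNAi (1.61-fold lower).

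**Figure D3:**
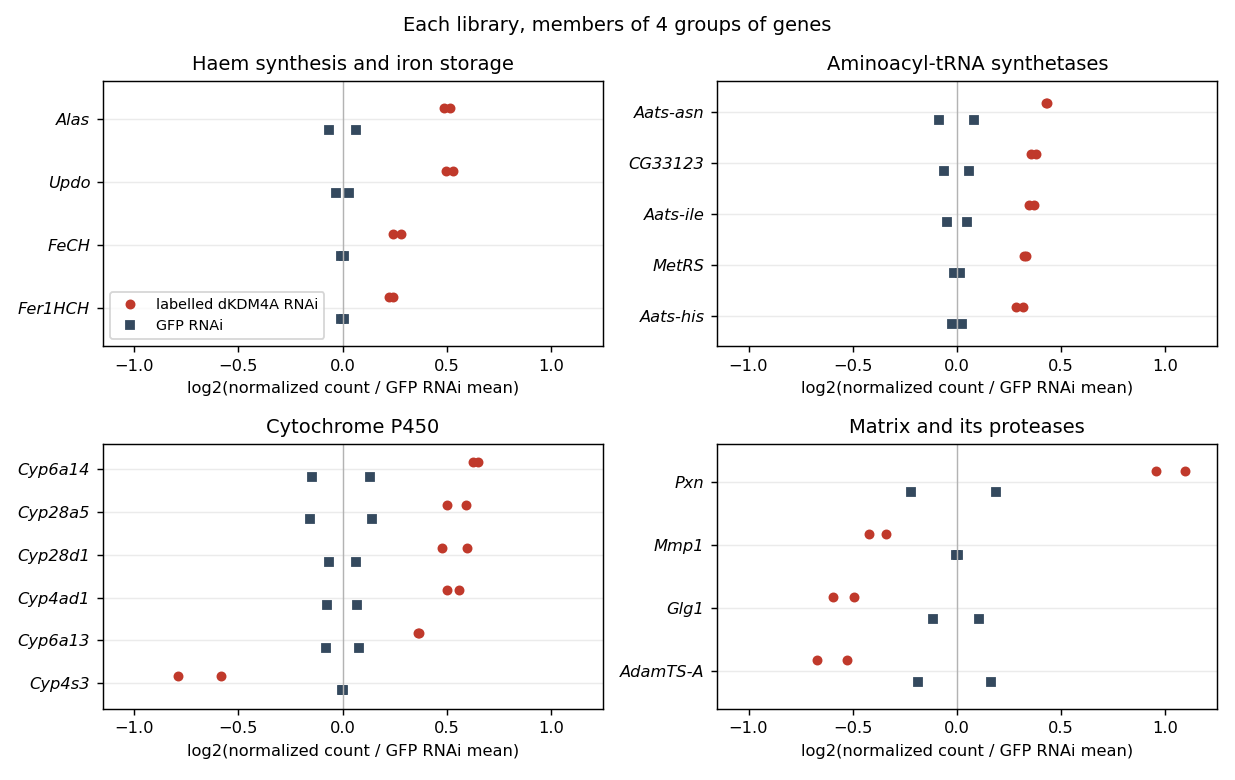
Log2 of each library's normalized count over the GFP RNAi mean of the same gene (horizontal axis) for listed members of 4 gene groups, with circles for the 2 libraries labelled dKDM4A RNAi and squares for the 2 GFP RNAi libraries. All listed haem, ferritin and synthetase genes lie right of GFP RNAi, 5 of 6 cytochrome P450 genes do, and Pxn lies opposite to Mmp1, Glg1 and AdamTS-A.

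Glycolysis had 2 of 14 genes listed (14.3%), both higher. Pfk, the phosphofructokinase that commits glucose to glycolysis, had 2840 and 2774 normalized counts in the libraries labelled dKDM4A RNAi and 1745 and 1786 in GFP RNAi (1.59-fold higher). ImpL3, the lactate dehydrogenase gene, was 1.24-fold higher. Listed translation and growth genes other than the synthetases are given singly. RpL18, the 1 listed of 92 cytosolic ribosomal protein genes (1.09%), was 1.42-fold higher at 60860 and 63171 normalized counts, against 47342 and 40089 in GFP RNAi. The mitochondrial ribosomal protein gene mRpL28 was 1.31-fold higher. Thor, the translation repressor 4E-BP, was 1.38-fold higher at 9201 and 9397, against 6044 and 7440 in GFP RNAi. The amino acid transporter gene path was 1.28-fold, the branched-chain aminotransferase gene CG1673 (now Bcat) 1.24-fold and the folate enzyme gene Nmdmc 1.23-fold higher. The pyrimidine synthesis gene r (rudimentary) was 1.41-fold higher.

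Other higher genes with a known role were the tRNA 3′ end nuclease gene JhI-1 (now RNaseZ; 1.27-fold), CG9305 (now Bdp1), a subunit of an RNA polymerase III factor (1.26-fold), the single-strand DNA binding protein gene RpA-70 (1.26-fold) and the dynactin gene DCTN1-p150 (1.35-fold). The septin gene Sep4 was 1.55-fold, the beta-galactosidase gene Gal 1.57-fold (54.0% of its exon sequence is shared with an antisense RNA gene), the GTP-binding protein gene Dgp-1 1.44-fold, the aspartyl hydroxylase gene Asph 1.46-fold and the mucin-related gene Mur82C 1.49-fold higher. The rabphilin gene Rph was 1.37-fold, the FAD synthetase gene CG4407 (now Flad1) 1.28-fold, the ADAM protease gene mmd 1.28-fold, the mitochondrial ATPase gene bor 1.24-fold and the GTPase regulator gene RhoGAP92B 1.24-fold higher. Genes known here only by name were CG9813 and CG11825 (1.57-fold and 1.56-fold), CG34331 (1.47-fold), CG10362 (now Pdzd8; 1.46-fold), CG2915 (1.38-fold) and CG6830 (1.35-fold). Further higher genes were CG33926 (now Srg3) and CG2017 (1.33-fold each), CG5646 (1.32-fold), CG10365 (1.31-fold), CG14767 (1.29-fold), CG3760 (1.28-fold), CG17746 (1.25-fold) and CG9338 (1.24-fold).

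Among decreases, piwi followed Or43b. It encodes an Argonaute protein that, with piRNAs, silences transposons in the nucleus. It had 5761 and 5658 normalized counts in the libraries labelled dKDM4A RNAi, against 9182 and 9508 in GFP RNAi (1.64-fold lower). The authors' deposited table gave it the second lowest adjusted p, 1.86e-20, at a log2 fold change of -0.70 with a standard error of 0.069. It was the 1 listed of 34 piRNA pathway genes (2.94%). It was also the 1 listed of 11 markers of ovarian somatic cells, where Piwi is known to act.

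Both repeats of the table are telomeric retrotransposons, which maintain fly chromosome ends by adding copies of themselves, and both were lower. TART, another telomeric retrotransposon, was not listed, and its level was not analysed here. HETA had 3277 and 3359 normalized counts in the libraries labelled dKDM4A RNAi, against 3975 and 4289 in GFP RNAi (1.25-fold lower). TAHRE had 624 and 713, against 891 and 1014 in GFP RNAi (1.43-fold lower). The sources used here do not say how reads that match several repeats were counted.

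The extracellular matrix list had 4 of 23 genes listed (17.4%), 1 higher and 3 lower. Pxn was the higher one. The 23 members include the translation factor gene eIF3j, which is not a matrix gene and was not listed. AdamTS-A, a secreted protease, had 715 and 649 normalized counts in the libraries labelled dKDM4A RNAi, against 1156 and 907 in GFP RNAi (1.51-fold lower). Mmp1, a matrix metalloproteinase, had 5197 and 4903, against 6594 and 6559 in GFP RNAi (1.30-fold lower). The Golgi glycoprotein gene Glg1 had 7604 and 7090, against 11532 and 9885 in GFP RNAi (1.46-fold lower). For AdamTS-A the distance between the nearest libraries of both groups, 0.34 on the log2 scale, was smaller than the gap of 0.35 between the GFP RNAi libraries. CG10126 was the only other such feature (0.31 against 0.33).

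Listed transport genes went in both directions, with path 1.28-fold higher and dmGlut lower. The glutamate transporter gene dmGlut had 964 and 889 normalized counts in the libraries labelled dKDM4A RNAi, against 1630 and 1273 in GFP RNAi (1.57-fold lower). Of the ectoenzyme list, veil was 1.67-fold higher and wun2 lower. The lipid phosphatase gene wun2 had 2820 and 2643, against 4319 and 3650 in GFP RNAi (1.46-fold lower), and the ceramidase gene CDase was 1.36-fold lower. Rrp1, a DNA repair nuclease, was the 1 listed of the 39 genes of the repair list, which does not hold RpA-70 (1.26-fold higher). Rrp1 had 6573 and 6687 normalized counts in the libraries labelled dKDM4A RNAi and 10056 and 9269 in GFP RNAi (1.46-fold lower). The nuclear envelope gene kuk was 1.30-fold and the insulator protein gene Cp190 1.22-fold lower. The remaining lower genes were CG12206 (1.5-fold), CG9705 (1.47-fold), CG10126 (1.45-fold), CG14990 (1.42-fold), CG3168 (1.28-fold), CG44014 (1.25-fold), CG13893 (1.24-fold, with 57.0% of its exon sequence shared with an antisense RNA gene), CG7900 (1.24-fold), CG7324 (now Tbc1d8-9; 1.19-fold) and Wbp2 (1.18-fold). A row for CG44013, the neighbour of CG44014 split from the same former gene, holds no values of its own.

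Several lists had 0 genes listed. They included the HP1 family with histone H3 methyltransferases and position-effect proteins (23 genes) and the small interfering RNA pathway (12). The cell cycle and kinetochore (49), heat shock genes (20) and the glutathione and UDP-glycosyl transferases (70) had 0 as well. With only 0.631% of annotated protein-coding genes listed, 0 in lists of these sizes says little about their genes. Kdm4A itself was the 1 listed of 13 histone demethylase and related genes. The other listed members stood alone in their lists: Or43b of 179 chemoreceptor genes and ImpL3 of 20 ecdysone response genes.

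The listed genes were spread over all large chromosome arms roughly as annotated genes are. Chromosome X held 14.8% of them and 15.7% of annotated protein-coding genes, 2L 15 of the 88 genes against 19.1% of annotated ones, 2R 22.7% and 20.5%, 3L 18.2% and 19.6%, and 3R 26.1% and 24.5%. On 2R 17 genes were higher and 3 lower, on 3L 10 and 6. With no protein-coding gene between them lay 4 pairs of listed genes. The members of 3 pairs were both higher: Cyp6a14 with Cyp6a13, NimC1 with Cyp28a5 at 532 bp, and Prx2540-2 with CG11825 at 652 bp. Only Or43b with Kdm4A held opposite directions. Prx2540-2, a peroxiredoxin gene, had 553 and 529 normalized counts in the libraries labelled dKDM4A RNAi, against 406 and 403 in GFP RNAi (1.34-fold higher). It has a close copy nearby, so its reads may be split between copies.

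For all 90 features both libraries labelled dKDM4A RNAi lay on 1 side of both GFP RNAi libraries, and in 88 the distance between the groups exceeded the gap within each group. Limma on log2(normalized count + 1), adjusted by Benjamini-Hochberg over these rows alone, called all 90 (100%), with adjusted p from 0.00038 to 0.00673. Since these rows had been selected on the same libraries, none of these counts is independent support. The share with groups apart among all 7533 tested features is not known here. With 2 libraries a group, the smallest two-sided p of an exact permutation test is 0.333.

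**Figure D4:**
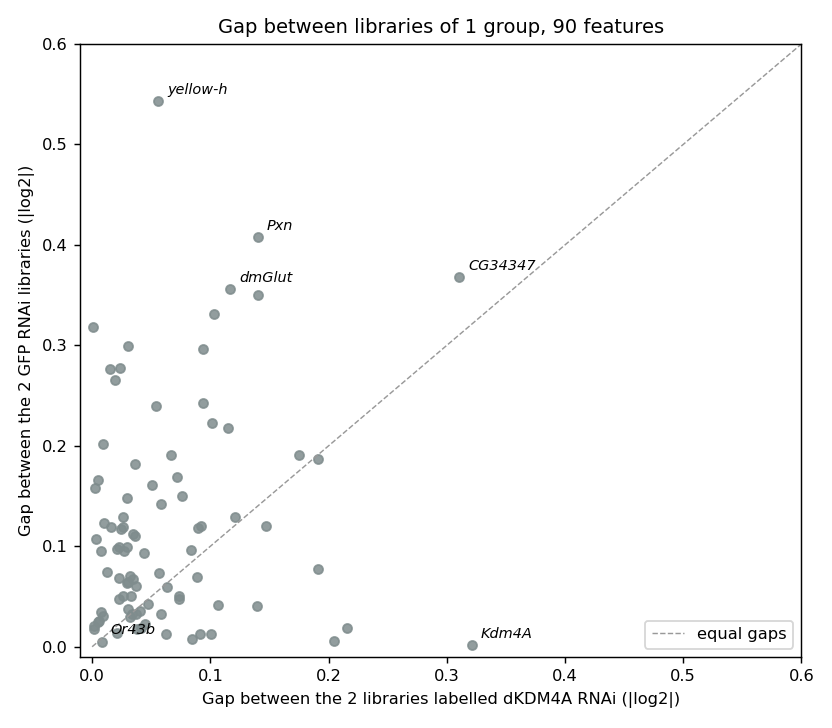
Absolute log2 gap between the 2 libraries labelled dKDM4A RNAi (horizontal axis) and between the 2 GFP RNAi libraries (vertical axis) for the 90 features, with a dashed line where both gaps are equal. Most features lie above the line, with medians of 0.04 and 0.10, and Kdm4A lies farthest to the right.

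The libraries labelled dKDM4A RNAi were closer to each other than those of GFP RNAi. The median gap between libraries was 0.04 on the log2 scale in the libraries labelled dKDM4A RNAi and 0.10 in GFP RNAi, and it was wider in GFP RNAi for 63 of 90 features. One example is the pyrimidine gene r, with 10355 and 10361 normalized counts in the libraries labelled dKDM4A RNAi, against 8135 and 6522 in GFP RNAi.

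In the HP1a RNAi table, where 6.46% of 8287 features were listed (4.18% higher and 2.28% lower), 43 of the 90 features appeared again, 35 of them higher and 8 lower in both tables. That was 47.8% of the dKDM4A list and 8.04% of the HP1a list. Both tables share the GFP RNAi libraries, so the values are given side by side with no test. An exchange of the labels of dKDM4A RNAi and GFP RNAi would also change the control of the HP1a RNAi ratios. It was not tested. Kdm4A, Or43b and piwi were not among these 43. Pxn was higher by 2.04-fold in libraries labelled dKDM4A RNAi and by 2.26-fold in HP1a RNAi, with 406768 and 334266 normalized counts in HP1a RNAi and 186823 and 140994 in GFP RNAi as scaled in that table. CG34331 was higher by 1.47-fold in libraries labelled dKDM4A RNAi and by 3.03-fold in HP1a RNAi, where its libraries were far apart (938 and 1972, against 472 and 488 in GFP RNAi). CG14990 was lower by 1.42-fold in libraries labelled dKDM4A RNAi and by 2.77-fold in HP1a RNAi. CG3168 was 1.28-fold and 2.30-fold lower in the same order, and Prx2540-2 was 1.34-fold and 2.05-fold higher. The gene e was 1.84-fold and 1.45-fold higher, CG5697 2.41-fold and 1.80-fold. HETA was 1.25-fold and 1.24-fold lower, and TAHRE 1.43-fold and 1.39-fold.

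**Figure D5:**
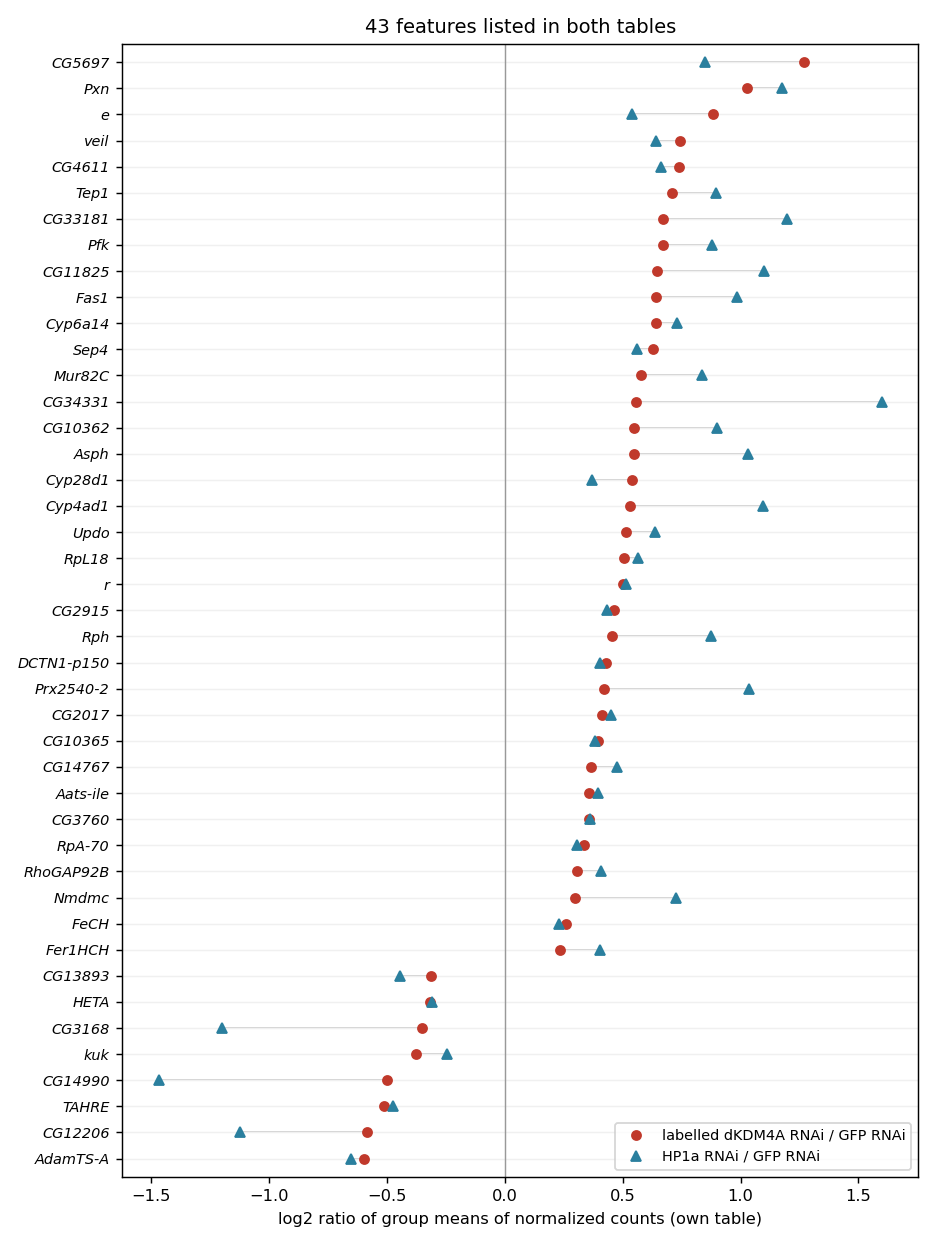
Log2 ratio of group means over GFP RNAi, each from its own table, for the 43 features listed in both, with circles for the libraries labelled dKDM4A RNAi and triangles for HP1a RNAi. The ratios of HETA and TAHRE nearly coincide, whereas CG34331, CG14990 and CG3168 lie far apart; both ratios use the same GFP RNAi libraries.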

How the data were processed

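Per the labels' protocols, oligo-dT purified RNA was sequenced with TruSeq libraries. TopHat, Bowtie and DESeq2 appear, without versions, in the submitters' processing notes. The build of the genome is not named there. Gene positions in the table equalled those of the BDGP6 annotation for 88 of 88 genes, 81 matched by identifier and 7 by symbol.

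Per the file headers, the deposited signal columns hold normalized counts, that is counts divided by 1 factor for each library. All values were within 0.1 of whole reads at size factors from 0.847 to 1.26. The authors' own log2 fold changes with standard errors, the score (their quotient) and the p-values were used as deposited. Folds here are ratios of group means of normalized counts. A limma model (limma 3.58.1, R 4.3.3) was fitted to log2(normalized count + 1) over the listed rows, at a minimum mean of 1, after a test on simulated data. Recovered reads were scaled to their sums over the listed rows, where Pxn held 21.4% to 36.6% of the normalized counts. So compared, libraries of a group were further apart than sampling noise (chi-square per degree of freedom 12.7 and 61.0). The reads could not be checked to be raw counts. Each library counts as 1. There was 1 row without values, which was left out.

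The members, the 27 gene lists and the tests were chosen with earlier results of these data known, and 4 further lists were added after the values were seen. The naming rule took Kdm4A, the 12 largest ratios in each direction, every repeat, every listed member of a gene list and adjacent listed genes; every other feature is given by its ratio. Which of these have values per library was partly chosen after the values were seen. Python 3.11.15, pandas 2.3.3, numpy 2.4.6 and matplotlib 3.10.9 were used.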

Additional observations from a re-analysis of the deposited data

How the results depend on the processing

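Pseudocounts of 0.1 and 5 and no filter left all 90 limma calls, and a minimum mean of 500 left 73 of 73 features tested. All listed features passed the main filter, so leaving it out changed nothing. The rows had been selected on the same libraries, so unchanged calls are not independent support. A replicate block in the model also gave 90 limma calls, 66 higher and 24 lower, so it changed no call. Deviations of the first library of each group from its group mean correlated at 0.28 across the 90 features. With 2 libraries a group, the second libraries only mirror the first, and no label pairs them. Leaving out each library in turn gave 84 to 90 limma calls, 63 to 66 higher and 21 to 24 lower. The lone library of a group was then assumed to vary like the others. Calls lost without the first library labelled dKDM4A RNAi were FeCH, Fer1HCH, Wbp2 and CG7324, and without the second Nmdmc and Cp190 as well (limma adjusted p from 0.0506 to 0.119). Their log2 differences stayed similar, such as -0.26 and -0.22 against -0.24 for Wbp2, at a standard error of 0.139 with a library left out, against 0.0507 for Wbp2 with all. Kdm4A stayed between 1.34 and 1.67 on the log2 scale in these fits, and its deposited log2 fold change was 1.40. None of the 48 features of the naming rule changed sign under any of these alternatives. With the groups apart for every feature, neither a left-out library nor another pseudocount could have turned a sign.

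An adjusted p below 0.01 left 47 higher and 13 lower features, and a ratio of at least 1.5 left 19 and 6. These are fewer by construction. The share of listed genes on 3R was 16.7% at an adjusted p below 0.01, and its cause was not tested. The share by a ratio of at least 1.5 was an alternative chosen after seeing the data. Matching by symbol also found 43 shared features. Both planned count tests on recovered reads were not run, because the low values were too few to check that the reads are raw counts, and other scalings could not be tried on listed rows alone.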
